A study of Mus musculus with 82 samples.

Results

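The regions described here are the 1 kb stretches directly upstream of protein-coding genes, read on the strand opposite to the gene, in V6.5 mouse embryonic stem (ES) cells. A RefSeq protein-coding gene of GRCm38 on chr1 to chr19 was kept when no other RefSeq gene lay within 5 kb upstream of its transcription start site (TSS) on either strand, which left 11216 of 20021 genes (56.02%). Transcription from these stretches therefore runs away from the gene, into sequence where no other gene is annotated. Of the kept genes, 4450 have a RefSeq gene record that starts farther upstream than the TSS used here, by more than 100 bp in 2560 of them. The TSS was that of the 5′-most curated mRNA.

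All samples are of 1 established ES cell line, grown in serum with leukaemia inhibitory factor, with no treatment and no change of genotype. Nascent RNA was labelled in a nuclear run-on with click-compatible nucleotides, so that the 3′ end of each read marks the position of an RNA polymerase. AGTuC used bulk nuclei in a concentration of the detergent sarkosyl that disrupts the nuclear membrane (2 libraries of batch Exp125c), inAGTuC used intact nuclei with far less sarkosyl, pooled in wells (4 libraries of 3 batches), and scGRO–seq used the intact-nuclei reaction with 1 nucleus or cell per well. The 10 scGRO–seq batches that a figure of the study names hold 53 libraries, of which 35, with 2539 kept cells, had enough kept cells to be used and 18 did not, and each batch was taken as 1 replicate.

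Most mammalian promoters fire in both directions. RNA polymerase II that starts on the opposite strand makes short upstream antisense RNAs, also called PROMPTs, which are cleaved at early polyadenylation signals, lack the splice sites that protect the sense transcript, and are degraded by the RNA exosome. They are scarce in steady-state RNA, so run-on assays, which read engaged polymerase before decay, are the usual way to see them. Polymerase pauses near the start in both directions, and strong detergent frees it to extend its RNA in the run-on.

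The 3 regions below are shown with their sequence because they stand for the extremes of upstream antisense reads in AGTuC. They are the pair with most antisense reads (Hmga1 and Kpnb1) and an active gene with no antisense read in its upstream 1 kb (Usp10). Each line is 300 bases of GRCm38.p6 from the RefSeq genome, written 5′ to 3′ in the direction of the antisense RNA. The 20 capitals end at the position with most antisense RNA 3′ ends in AGTuC, and Usp10, which has none, has no capitals.
Hmga1: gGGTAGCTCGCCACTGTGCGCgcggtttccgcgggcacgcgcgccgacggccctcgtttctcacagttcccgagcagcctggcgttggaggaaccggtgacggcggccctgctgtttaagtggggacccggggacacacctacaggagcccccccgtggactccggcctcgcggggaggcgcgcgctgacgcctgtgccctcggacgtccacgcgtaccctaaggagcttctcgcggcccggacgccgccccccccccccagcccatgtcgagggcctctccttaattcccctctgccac
Kpnb1: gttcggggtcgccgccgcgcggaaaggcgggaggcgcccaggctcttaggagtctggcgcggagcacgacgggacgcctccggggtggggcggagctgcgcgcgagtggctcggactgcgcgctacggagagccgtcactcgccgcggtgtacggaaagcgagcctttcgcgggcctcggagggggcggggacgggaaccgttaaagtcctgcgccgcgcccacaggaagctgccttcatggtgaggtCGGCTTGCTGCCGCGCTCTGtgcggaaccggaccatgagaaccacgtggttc
Usp10: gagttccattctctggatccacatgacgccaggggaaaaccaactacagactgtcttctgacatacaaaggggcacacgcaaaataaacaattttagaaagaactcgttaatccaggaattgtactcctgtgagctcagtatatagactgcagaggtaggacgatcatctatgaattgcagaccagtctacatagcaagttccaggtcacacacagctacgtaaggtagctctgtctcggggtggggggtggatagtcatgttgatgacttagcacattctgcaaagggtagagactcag

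The Hmga1 stretch is chr17:27556198-27556497 on the minus strand and holds 354 of the 604 antisense reads of its 1 kb. The Kpnb1 stretch, chr11:97188340-97188639 on the plus strand, holds 343 of 561. The position marked by capitals lies 97 bp upstream of the TSS in Hmga1 and 715 bp in Kpnb1, and holds only 18 and 19 reads, so the signal at each was spread over many positions. The observed over expected CpG ratio of the printed bases was 0.947 in Hmga1 and 1.17 in Kpnb1, against 0.380 in Usp10 (chr8:119910060-119910359, minus strand). From 250 bp upstream to 50 bp downstream of the TSS, this ratio was 0.457 in Usp10. It was 0.943 in Gclc and 0.777 in Plbd2, active genes that also had no upstream antisense read in AGTuC. Usp10 thus does not stand for all such genes in CpG content. The polyadenylation signal AATAAA occurs in the Usp10 stretch 1 time and in neither of the others.

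The libraries differed widely in depth, from 2194365 and 4675123 reads on chr1 to chr19 in AGTuC to between 604854 and 1428634 in inAGTuC and between 217601 and 4751831 in the scGRO–seq batches. Reads whose molecule (an identical barcode, UMI, strand and position) recurred in another library were dropped, which removed 0.330% of the AGTuC reads, 16.8% of inAGTuC and 29.3% of scGRO–seq, and 1 scGRO–seq list (Exp261_c16), 99.7% of which was also in an inAGTuC list, was not used. All 10 ES cell marker genes had reads in every assay, summed to at least 324 RPM (reads scaled to a total of 1000000) in each library or batch, against at most 100 RPM for 8 genes of other cell types. The inAGTuC library Exp234_c11 stood apart, since only 46.9% of its reads inside gene bodies lay on the gene's strand, where the other inAGTuC libraries had 67.95% to 80.5%, AGTuC 83.6% and 83.8%, and scGRO–seq batches 64.9% to 83.5%. Nothing in the labels says that libraries or batches came from separate cultures, so p-values measure the spread between these samples, which may be technical. Fewer RNA molecules at a region and fewer nuclei that transcribe it cannot be told apart in bulk or summed data.

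In AGTuC, upstream antisense transcription formed a peak just behind the promoter. The Exp125c_c01 library had 57360 antisense reads in the regions, or 2.61% of its reads, and Exp125c_c02 had 133697, or 2.86%. Antisense reads made up 78.4% (95% Wilson interval 78.1 to 78.7) of all reads in the upstream 1 kb in the first and 78.1% (77.9 to 78.3) in the other, the remainder lying on the gene's own strand. Such intervals cover counting error only. The antisense reads were 18.8-fold and 20.1-fold as dense as those on the same strand 4 to 5 kb upstream, in the same gene-free sequence, while upstream reads on the sense strand were 2.48-fold and 2.78-fold as dense as their own flank. The gene-free flank itself leaned to the other strand, with 32.4% and 32.95% antisense reads.

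The antisense peak lay 151 to 200 bp upstream of the TSS, where density summed over the regions was 87.9 ± 6.68 RPM per bp (SD, n = 2), 59.9-fold and 65.1-fold over the flank. The sense pause peak lay 50 to 99 bp downstream at 359 ± 26.3 on the same scale. Of the antisense reads, 82.2% and 83.0% fell in the 500 bp next to the TSS. Density then declined from 32.2-fold over the flank in those 500 bp to 6.78-fold between 501 and 1000 bp, 3.06-fold up to 1500 bp, 2.14-fold up to 2000 bp and 1.19-fold between 3501 and 4000 bp (means of both libraries). Among the 2287 regions with antisense reads at 20 or more positions, the median distance of a region's reads from its TSS had quartiles of 165, 230.5 and 334 bp, and the gap between a gene's median antisense and median sense position was 395.5 bp in the middle region.

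**Figure D1:**
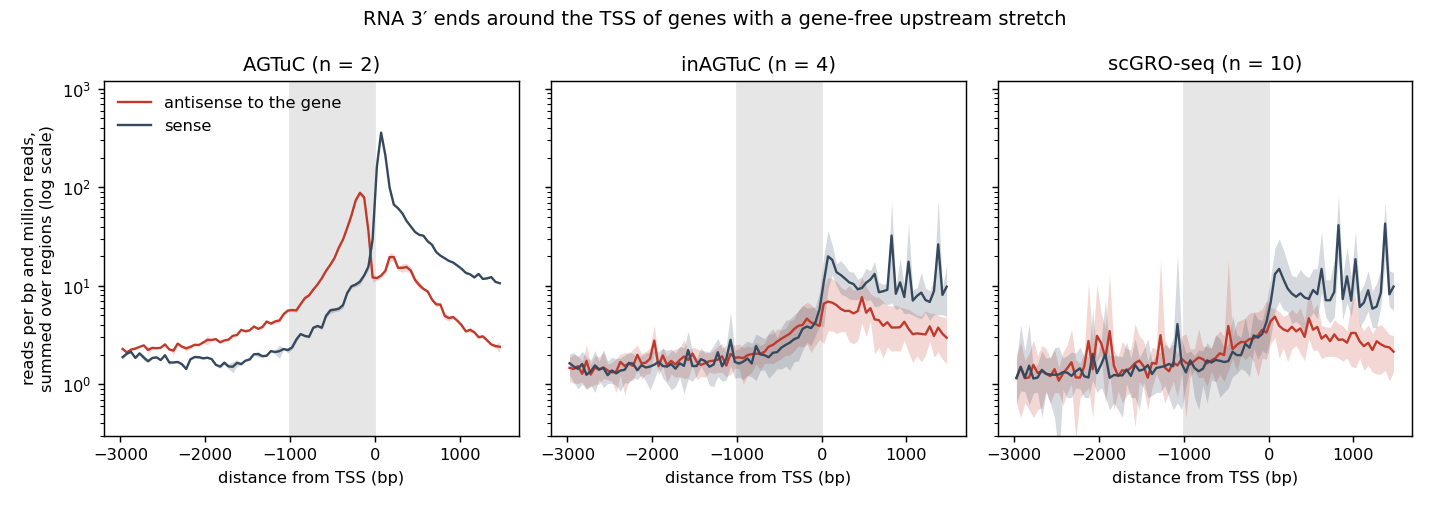
Density of RNA 3′ ends around the TSS of the 11216 genes, in RPM per bp on a log scale, against distance from the TSS in bp. Lines are means and bands the lowest to highest library (AGTuC, inAGTuC) or batch (scGRO–seq), red for the strand opposite to the gene and blue for the gene's strand, and grey marks the 1 kb window. AGTuC has an antisense peak of 87.9 at 151 to 200 bp upstream, where the mean line of the upstream 1 kb stays at or below 4.64 in inAGTuC and 3.91 in scGRO–seq.

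The reads were unevenly divided among the regions. Over both AGTuC libraries 6078 regions (54.2%) had an antisense read, 2629 (23.4%) had 20 or more, and 5138 had none, with a median of 1 and a highest value of 604. The 1121 regions with most reads held 61.3% of all antisense reads. Of the 2629 regions with 20 or more, 2476 (94.2%) had more antisense than sense reads in the upstream 1 kb. These regions were chosen for many antisense reads, so this is a description. Summed over the regions with 6 to 19 antisense reads the antisense share of upstream reads was 64.7%, and with 1 to 5 it was 40.5%. Where the RefSeq record of the gene starts more than 100 bp farther upstream, 68.8% of the upstream reads were antisense. In all other regions the share was 82.6%.

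Antisense and sense transcription went together across genes but not in a fixed proportion. Across the 11216 regions the rank correlation of antisense reads with sense reads in the first 1 kb of the gene was 0.839 in AGTuC, and 0.767 with reads in the gene body. Genes are not independent replicates and these counts share libraries, so the correlations are a description. Of 4549 genes with 20 or more sense reads, 168 (3.69%) had no antisense read. Of 4482 genes with no sense read, 367 had antisense reads and 13 had 20 or more. Among the 1394 regions with at least 50 antisense plus sense reads in each AGTuC library, the log2 ratio of antisense to sense reads (with 1 added to each) had quartiles of -2.72, -1.41 and -0.37, and antisense exceeded sense in 252 regions (18.1%). The ratio of a region was alike in both libraries, with a rank correlation of 0.947.

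The 10 regions with most antisense reads in AGTuC belong to Hmga1 (an architectural chromatin protein), Kpnb1 (importin beta 1), H3f3a (histone H3.3), Ext1 (heparan sulphate synthesis), Sde2, Usp53, Rab33b (a Golgi GTPase), Hmgb1 (a chromatin protein), Stk24 (a kinase) and Cdt1 (replication licensing). They were chosen for these counts, so the counts are a description. The 1 kb upstream of Hmga1 (TSS at chr17:27556574, plus strand) had 191 and 413 antisense reads in Exp125c_c01 and Exp125c_c02, where the first 1 kb of the gene had 74 and 154 sense reads. Kpnb1 (TSS at chr11:97187892, minus strand) had 192 and 369 antisense against 59 and 88 sense reads. H3f3a (TSS at chr1:180813605, minus strand) had 118 and 263 against 17 and 48. In all 10 genes antisense reads outnumbered sense reads in both libraries, by least in Stk24, with 98 and 225 antisense reads against 86 and 175 sense reads.

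The same stretches held few reads in the intact-nuclei assays. They were chosen for their AGTuC reads, and the counts are not scaled for depth, so this too is a description. Sense reads of Hmga1 were also fewer, at 15 in inAGTuC and 44 in scGRO–seq against 228 in AGTuC. Hmga1 had 3, 6, 1 and 2 antisense reads in the 4 inAGTuC libraries (Exp208_c12, Exp208_c14, Exp234_c11 and Exp261_c16) and between 0 and 4 in the scGRO–seq batches, with a median of 1. Kpnb1 had 1, 3, 1 and 1 reads in inAGTuC, and 0 to 6 in scGRO–seq with a median of 1. Ext1, which had 138 and 239 reads in AGTuC, had 2 in all scGRO–seq batches together. The highest count of these 10 regions in any scGRO–seq batch was 15, for Usp53 in Exp236, the deepest batch.

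The highest ratios belonged to genes with far fewer sense than antisense reads. Ttc25, a gene of motile cilia, had 56 and 128 antisense reads and only 1 and 0 sense reads in AGTuC. Gng13, a G protein gamma subunit, had 52 and 93 against 1 and 2, although its promoter is poor in CpG (observed over expected 0.209). Tcf4, a basic helix-loop-helix factor, had 49 and 94 against 5 and 8. Napepld, an enzyme of lipid amide synthesis, had 45 and 123 against 6 and 18. Phf21a, a PHD finger protein, had 45 and 117 against 8 and 15, and its promoter is also poor in CpG (0.157). But it also had 46 and 86 upstream reads on its own strand, and its RefSeq gene record starts 431 bp upstream. In these 5 regions, chosen for this ratio, every AGTuC library had more antisense than sense reads.

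The lowest ratios belonged to active genes with few or no antisense reads in the upstream 1 kb. Usp10, a deubiquitinase, had no antisense read in either AGTuC library and 65 and 169 sense reads. Gclc, the catalytic subunit of glutathione synthesis, had none against 56 and 130, and Plbd2 had none against 50 and 120. The linker histone gene H1f4 had 0 and 3 antisense reads against 245 and 484 sense reads. Cnih4 had 1 and 0 against 121 and 174. It had 20 and 37 upstream reads on its own strand, and its RefSeq gene record starts 565 bp upstream. Since regions with 0 reads have only an upper limit, the order among the lowest follows their sense reads. The median AGTuC sense read lay 530 bp downstream of the TSS in Usp10 and 633 bp in H1f4. It lay 53.5 bp downstream in Gclc, 80 bp in Plbd2 and 101 bp in Cnih4. Antisense reads downstream of the TSS are not part of these counts, so the opposite strand as a whole was not tested.

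**Figure D2:**
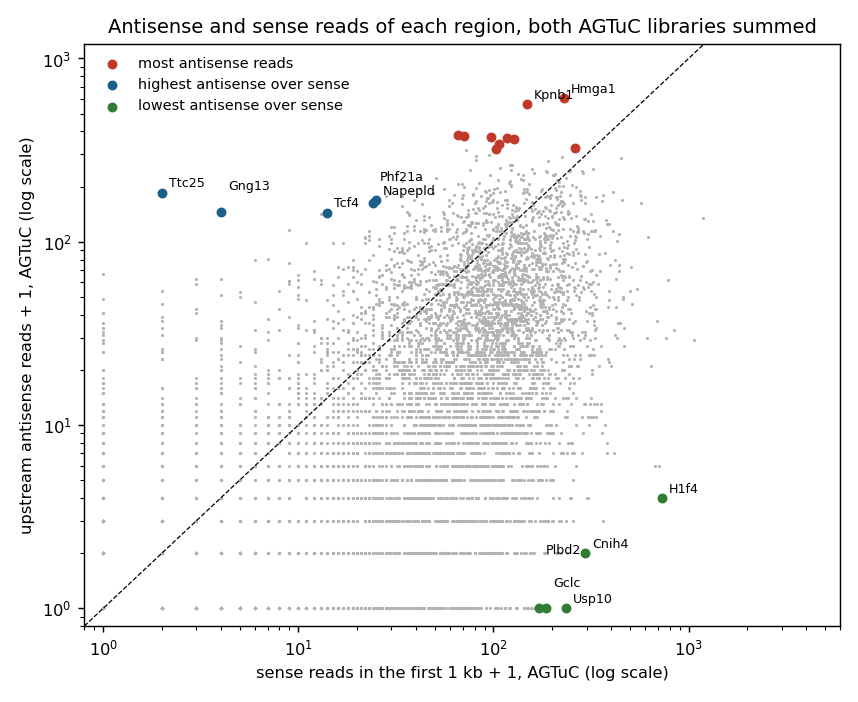
Upstream antisense reads against sense reads in the first 1 kb for each of the 11216 regions, both AGTuC libraries summed, with 1 added, on log axes. The dashed line marks equal counts, red points are the 10 regions with most antisense reads, and blue and green points are the 5 highest and 5 lowest ratios, from Ttc25 (184 against 1) to Usp10 (0 against 234).

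CpG content of the promoter, which the choice of regions did not use, went with antisense transcription in AGTuC. The regions were put into 4 equal classes of 2804 by the observed over expected CpG ratio from 250 bp upstream to 50 bp downstream of the TSS. In ascending order of CpG, 0.785%, 3.74%, 31.3% and 57.9% of a class had 20 or more antisense reads, and the classes held 0.825%, 4.33%, 29.1% and 65.8% of all antisense reads. The same order held among active genes: of those with 20 or more sense reads, 18.8%, 21.5%, 45.1% and 66.6% had 20 or more antisense reads. These are counts over regions in 2 libraries and carry no test. The ratio of summed antisense to sense reads did not follow the same order. On the log2 scale it was -0.60 and -0.74 in the class poorest in CpG, -1.86 and -1.88 in the next, then -1.61 and -1.62, and -1.15 and -1.10 in the class richest in CpG.

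Short sequence signals were asymmetric about the TSS. The polyadenylation signal AATAAA, searched on the antisense strand of the upstream 1 kb, occurred in 45.1% of the regions (40.3% of all 20021 genes), and on the sense strand of the first 1 kb of the gene in 23.1% (22.1% of all genes). In the 2629 regions with 20 or more AGTuC antisense reads the shares were 39.4% and 15.9%, and in the 5138 without a read they were 52.3% and 30.6%. The 5′ splice site sequence GTAAGT ran the other way, in 13.2% of upstream antisense and 20.8% of downstream sense stretches (14% and 20% of all genes). A TATAAA on the sense strand 20 to 40 bp upstream of the TSS was present in 396 regions, 3.53% (2.83% of all genes), but in 17 (0.647%) of those with 20 or more antisense reads. Few regions with TATAAA were active: 35 of 396 had 50 or more antisense plus sense reads in AGTuC, against 3915 of 10820 without it. The low share thus cannot be told apart from low activity. Summed over the regions with TATAAA, the log2 ratio of antisense to sense reads was -2.14 and -1.90 in the AGTuC libraries, against -1.32 and -1.30 without it. The medians over regions with 50 or more reads lay closer, at -2.07 (35 regions) and -1.65 (3915 regions). A match of letters is a description, not evidence of use of a site.

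Gene groups differed in how many of their promoters carried antisense transcription. Across all regions 23.4% had 20 or more AGTuC antisense reads and the median was 1 read. The groups also differed in sense transcription, and the shares below were not matched for it. The median of AGTuC sense reads was 124 in cell cycle, 79 in transcription machinery and 312 in ribosomal protein genes. It was 1.5 in bivalent genes, 0 in genes silent in ES cells and 5 in all regions. Of 19 cell cycle genes among the regions, 16 had 20 or more, with a median of 66 and a highest value of 320 at Cdt1. Of 13 transcription machinery genes 11 did (median 36, highest 202 at Aff4, a subunit of the super elongation complex). Of 25 ribosomal protein genes 19 did (median 43, highest 113 at Rps21). Of 16 bivalent developmental genes 3 did, or 18.8%, near the share of all regions and with the same median of 1 (highest 41 at Bmp4). Of 19 genes silent in ES cells 0 did, 14 of them having no antisense read at all and Neurod1 having most, with 10.

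The groups also differed in the balance of both directions. Summed over both AGTuC libraries, the log2 ratio of antisense to sense reads was -0.54 in the cell cycle genes and -0.83 in the transcription machinery, both above the -1.32 of all regions. It was -1.12 in bivalent genes, and in genes silent in ES cells 0.81 in Exp125c_c01 and -0.64 in Exp125c_c02, on 23 antisense reads in all. It was -2.90 in ribosomal protein genes, -2.76 in pluripotency genes and -2.41 in immediate early genes. The ribosomal protein genes were highly transcribed, with a median of 312 sense reads against 5 in all regions, and 89.8% of their upstream reads were antisense. These values are descriptions of lists and carry no test.

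Among the 16 pluripotency genes, 7 had 20 or more antisense reads. Klf2 had most, with 17 and 51 antisense reads against 148 and 290 sense reads. Tet2, a 5-methylcytosine dioxygenase, was the only one of these 7 with more antisense than sense reads, at 17 and 45 against 11 and 27. Klf5 had 20 and 39 antisense reads, Tdgf1 12 and 27, Zfp42 10 and 20, Tfcp2l1 7 and 22, and Fgf4 6 and 15. Nanog had 4 and 7 antisense against 47 and 74 sense reads. Mycn had 4 and 13 and Dppa5a 4 and 10, and the others, Prdm14, Nr5a2, Lin28a, Dppa2, Dppa3 and Dppa4, had at most 6 over both libraries.

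Of the 19 immediate early genes, which respond fast to growth factors, 12 had 20 or more antisense reads. Mcl1, an anti-apoptotic factor, had most, with 29 and 77 antisense reads against 120 and 231 sense reads. Junb and Ier2 were among the strongest in sense transcription, with 232 and 382 sense reads in Junb and 203 and 437 in Ier2, yet Junb had 9 and 20 antisense reads and Ier2 had 6 and 14. Atf3 (13 and 32 against 10 and 25), Ier3 (12 and 22 against 6 and 17) and Fosl2 (14 and 32 against 2 and 3) had more antisense than sense reads in both libraries. Dusp1 had 4 and 38, Egr1 10 and 26, Zfp36 13 and 20, Dusp5 6 and 25, Myc 9 and 17 and Srf 7 and 16. Fos had 6 and 12, Nr4a1 6 and 5, Ier5 1 and 9, Fosl1 2 and 3, Fosb 1 and 2, Jund 0 and 2, and Egr3 had none.

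A list of genes taken from the study's text and figures holds 7 of the regions, Nanog among them. Npm1, which encodes nucleophosmin, had 44 and 118 antisense against 207 and 364 sense reads in AGTuC and no upstream read on its own strand. It had 4 antisense reads in all inAGTuC libraries and 6 in all scGRO–seq batches, 5 of them in Exp236. The cell cycle genes Ccne1 (54 and 97 antisense reads), Ccnf (39 and 71) and Wee1 (15 and 51), and Hells (17 and 39), a chromatin remodeller that a figure of the study shows, all had more than 50 over both AGTuC libraries, and Cdk1 had 4 and 7. In scGRO–seq these 5 genes had between 1 and 12 antisense reads over all 10 batches.

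**Figure D3:**
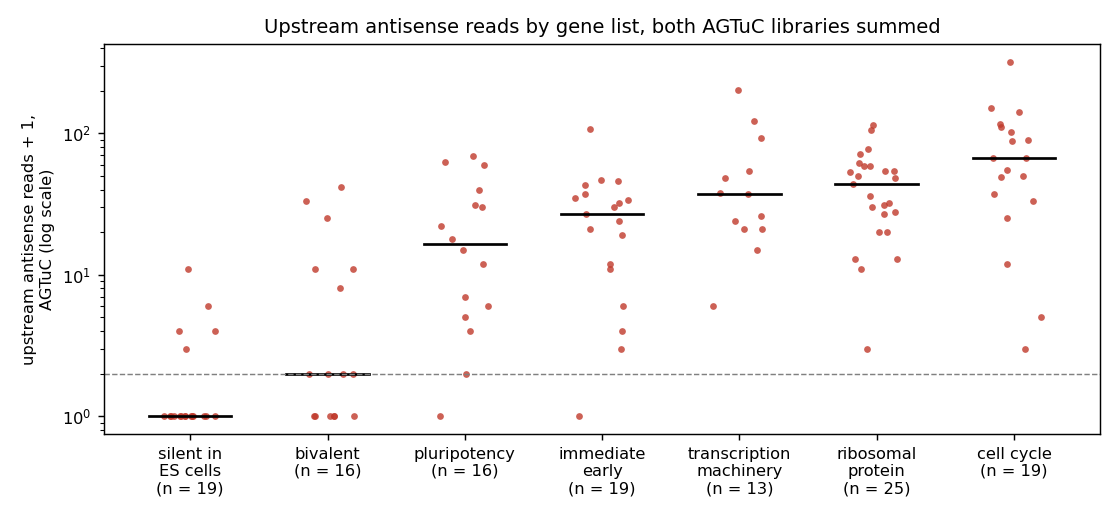
Upstream antisense reads of each region in 7 gene lists, both AGTuC libraries summed, with 1 added, on a log axis. Bars are list medians and the dashed line is the median of all 11216 regions, 1 read. Cell cycle genes have the highest median, 66 reads, and genes silent in ES cells lie at 10 reads or fewer.

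Whether the low-detergent assays see this transcription was asked over the summed regions. Upstream antisense reads were 2.61% and 2.86% of all reads in AGTuC. They were 0.352%, 0.258%, 0.389% and 0.187% in inAGTuC (Exp208_c12, Exp208_c14, Exp234_c11, Exp261_c16), and between 0.164% and 0.377% (median 0.228%) in the scGRO–seq batches. Both AGTuC libraries lay above every other library and batch. The AGTuC mean exceeded that of scGRO–seq by 2.50 percentage points, and per read in gene bodies by 5.43 points (2.74% against 0.239% of all reads, two-sided exact permutation test, n = 2 and 10, p = 0.0152, the smallest this design allows, Benjamini-Hochberg adjusted p = 0.0379 over 20 tests). It exceeded inAGTuC by 2.44 points (p = 0.0667 by the same exact test, adjusted p = 0.103, n = 2 and 4), where no smaller p is possible. The inAGTuC mean of 0.297% and the scGRO–seq mean of 0.239% differed by 0.0572 points (exact permutation p = 0.238, adjusted p = 0.280, n = 4 and 10), and by 0.0936 points without inAGTuC Exp261_c16 (unadjusted exact permutation p = 0.0420). Both AGTuC libraries come from 1 batch, so assay and batch cannot be told apart for them, and both AGTuC comparisons share these libraries. The replicates are unlike, libraries in AGTuC and inAGTuC and batches in scGRO–seq. With the mean of each batch as 1 replicate in every assay AGTuC has n = 1, and the differences in antisense percent, strand share, enrichment and distance from scGRO–seq had an exact permutation p of 0.0909, the smallest then possible.

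Strand and density also set AGTuC apart, as did the median position within the 1 kb window. The antisense share of upstream reads was 56.2%, 57.2%, 47.5% and 50.8% in the inAGTuC libraries and ran from 48.03% to 58.9% (median 51.7%) in the scGRO–seq batches, where the shallowest, Exp156, had 55.4% (Wilson interval 51.7 to 58.97). AGTuC exceeded scGRO–seq by 25.6 points and inAGTuC by 25.3 points (16.2 and 16.4 points when reads were placed by their other end). Antisense reads were 2.31-, 2.58-, 2.05- and 1.73-fold as dense as their flank in inAGTuC and 1.16- to 2.91-fold (median 1.62) in scGRO–seq. On the log2 scale AGTuC was higher than scGRO–seq by 3.49 and than inAGTuC by 3.18. The median antisense read lay 241 and 237 bp upstream in AGTuC, 380, 402, 324 and 394 bp in inAGTuC, and 336 to 481 bp (median 401.5) in scGRO–seq. No library or batch of the intact-nuclei assays reached the AGTuC range in any of these 3 measures. The exact permutation p of each AGTuC and scGRO–seq difference was 0.0152 (adjusted p = 0.0379), and of each AGTuC and inAGTuC difference 0.0667 (adjusted p = 0.103), the smallest possible. The difference in median distance shrank from -165 to -30.9 bp (exact permutation p = 0.394) when 500 bp windows were used, and that from inAGTuC shrank from -136 to -20.0 bp (exact permutation p = 0.200). The inAGTuC and scGRO–seq means differed by 0.332 points in strand share (exact permutation p = 0.880, adjusted p = 0.880), by 0.31 in log2 enrichment (exact permutation p = 0.212, adjusted p = 0.265) and by -29.1 bp in distance (exact permutation p = 0.321, adjusted p = 0.356). In Exp234_c11, reads lay on both strands of gene bodies alike, and without it the difference in strand share was 2.13 points and that between AGTuC and inAGTuC 23.5 points. Within batch Exp208, where both assays are among the samples compared, the 2 inAGTuC libraries exceeded scGRO–seq by 0.0560 points in antisense percent, 1.58 points in strand share and 0.73 in log2 enrichment (0.16 with each position counted 1 time), and their distance was lower by 33 bp, with no test. Batch Exp261 also holds both assays, with scGRO–seq libraries that are not among the 10 batches, and there inAGTuC differed by -0.0988 points in antisense percent, -2.29 points in strand share, 0.61 in log2 enrichment and -59 bp in distance. Reads opposite to the gene inside gene bodies were 16.2% and 16.4% in AGTuC, 19.5% to 53.1% in inAGTuC and 16.5% to 35.1% in scGRO–seq, and their part in the strand share was not tested.

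Sense reads in the first 1 kb of these genes were also a larger part of all reads in AGTuC. Their mean was 6.84%, against 1.24% in inAGTuC and 1.09% in scGRO–seq, with no test. Relative to these sense reads, antisense reads again had the highest mean in AGTuC, but this difference did not pass the test. For each 100 sense reads in the first 1 kb, AGTuC had 39.7 and 40.4 antisense reads, inAGTuC had 27.6, 19.05, 36.3 and 14.7, and the scGRO–seq batches had between 9.28 and 40.1 (median 23.4). The inAGTuC value of 36.3 is that of Exp234_c11. These antisense reads were not corrected for reads on the other upstream strand. Antisense and sense reads in the upstream 1 kb were 191057 and 53354 in AGTuC, 12400 and 11908 in inAGTuC, and 25843 and 24226 in scGRO–seq. The ratio thus cannot tell whether antisense and sense transcription fell together. The log2 ratio was -1.32 ± 0.02 (SD, n = 2) in AGTuC, -2.12 ± 0.58 (n = 4) in inAGTuC and -2.17 ± 0.58 (n = 10) in scGRO–seq. AGTuC exceeded scGRO–seq by 0.85 (two-sided exact permutation test, p = 0.0909, adjusted p = 0.130) and inAGTuC by 0.80 (exact permutation p = 0.133, adjusted p = 0.178), and inAGTuC and scGRO–seq differed by 0.05 (exact permutation p = 0.876, adjusted p = 0.880). Without batch Exp156 the difference from scGRO–seq was 0.71, and without Exp211 it was 0.95, each with an unadjusted exact permutation p of 0.0364. Within batch Exp208 inAGTuC differed from scGRO–seq by 0.19 and within Exp261 by -1.55, with no test. Genes that hold small RNA genes made up a varying part of the sense reads. The 40 genes with a small RNA gene in their first 1 kb held 1.31% and 1.21% of the sense reads in AGTuC, 1.65% to 40.1% in inAGTuC and 15.0% to 44.4% in scGRO–seq. Without these genes AGTuC exceeded scGRO–seq by 0.44 (exact permutation p = 0.303).

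**Figure D4:**
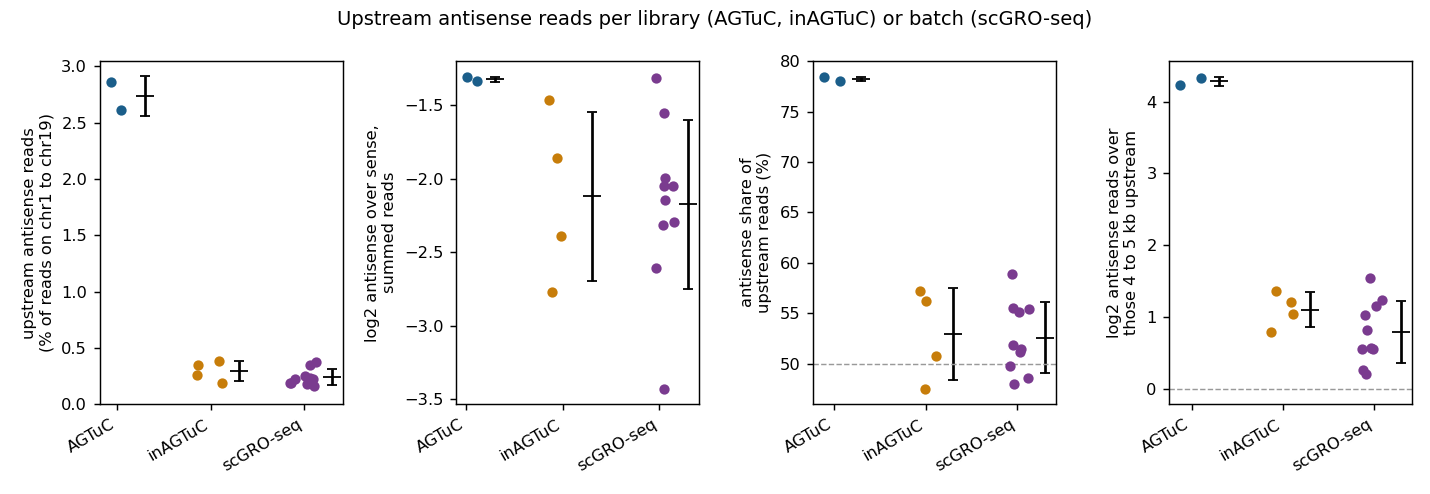
Measures of upstream antisense reads, from left to right the percent of all reads, the log2 ratio to sense reads, the antisense share of upstream reads in percent and the log2 density over the flank. Points are libraries (AGTuC, n = 2; inAGTuC, n = 4) or batches (scGRO–seq, n = 10) and bars are mean ± SD. AGTuC lies apart from the other assays in all but the ratio, where a scGRO–seq batch, Exp211, reaches the AGTuC level (-1.63 without Fam83f).

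Summed over single nuclei, upstream antisense reads were nevertheless denser than their flank, and so were upstream sense reads on average. In all 10 scGRO–seq batches antisense reads were denser in the 1 kb window than in the flank, by 0.79 ± 0.44 on the log2 scale (p = 0.00195 by a two-sided exact sign-flip test, where no smaller p is possible with 10 batches, adjusted p = 0.00977). Upstream reads on the sense strand were denser than their flank by 0.34 ± 0.45 in the same batches and by 0.77 ± 0.28 in the inAGTuC libraries. With each position counted 1 time per library the scGRO–seq values were 0.92 ± 0.33 for antisense and 0.63 ± 0.20 for sense. Since both strands were denser near the TSS, this test does not tell antisense transcription from reads that fall on either strand. The antisense share of upstream reads exceeded 50% in 7 of 10 batches, by a mean of 2.59 points (exact sign-flip p = 0.0566, adjusted p = 0.103), and so did not pass the test. It was 3.10 points without Exp260 (unadjusted exact sign-flip p = 0.0273) and 3.04 points without Exp260b (unadjusted exact sign-flip p = 0.0391). The lowest value without 1 batch was 1.89 points. Among 10 alternatives of processing 6 passed (unadjusted), and the lowest value was 0.315 points, when reads were placed by their other end. Antisense reads were found in 7398 regions (65.96%) over all batches, but 62 had 20 or more and 3818 had none. No region had a read in all 10 batches, and 6 had reads in 8.

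In single nuclei the antisense share of upstream reads was higher in regions with strong antisense transcription in AGTuC than in regions with none. In the 2629 regions with 20 or more AGTuC antisense reads, the antisense share of scGRO–seq upstream reads was 55.4% ± 3.81, and in the 5138 without one it was 46.9% ± 3.22 (SD over 10 batches). The difference of 8.56 points was above 0 in 10 of 10 batches, from 0.844 in Exp260 to 13.98 in Exp264a (two-sided exact sign-flip test, p = 0.00195, adjusted p = 0.00977). With each position counted 1 time it was 8.003 points, above 0 in 9 of 10 batches and -1.22 in Exp260 (exact sign-flip p = 0.00391). The density over the flank differed between the same regions by 0.96 on the log2 scale, again above 0 in 10 of 10 batches (exact sign-flip p = 0.00195, adjusted p = 0.00977). Upstream reads on the sense strand also differed, at 0.80 against 0.27 on the same scale. Both comparisons were added after the data had been seen. The inAGTuC libraries gave differences in strand share of 13.1, 19.2, 2.75 and 6.99 points, the smallest in Exp234_c11.

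The share was higher at the highest AGTuC level than at a level of 0 in 10 of 10 batches, with no test. In regions with 0, 1 to 5, 6 to 19, 20 to 79 and 80 to 604 AGTuC antisense reads (5138, 1811, 1638, 1967 and 662 regions), 45.6%, 51.5%, 52.4%, 53.2% and 57.02% of the pooled scGRO–seq upstream reads were antisense. Without the region of Fam83f, the class of 6 to 19 reads had 49.8%. With each position counted 1 time per library the scGRO–seq values were 47.3%, 50.7%, 49.4%, 53.9% and 56.8%, so the middle step was not kept. Within batches the share rose at every step in 1 of 10 (Exp264a). In inAGTuC the shares were 46.8%, 48.4%, 49.3%, 53.4% and 56.5%. Across all regions the rank correlation of antisense reads in AGTuC with antisense reads in scGRO–seq was 0.525, and with upstream sense reads in scGRO–seq it was 0.429. With inAGTuC the same values were 0.509 and 0.412. These correlations share depth and base composition and are a description.

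**Figure D5:**
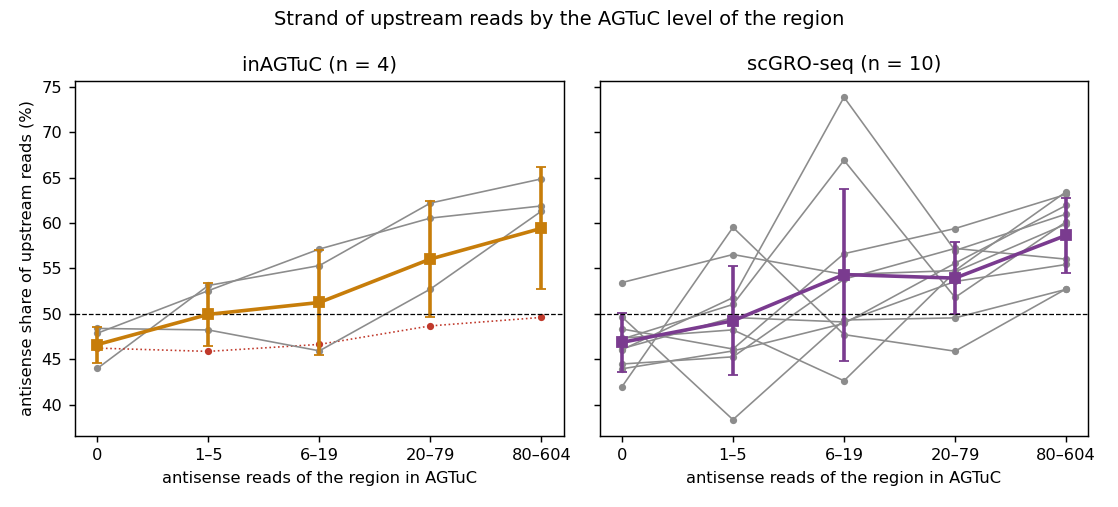
Antisense share of upstream reads in percent, by the number of AGTuC antisense reads of the region, in inAGTuC libraries (left) and scGRO–seq batches (right). Thin lines are libraries or batches, squares and bars are mean ± SD, the dotted red line is inAGTuC Exp234_c11, and the dashed line marks 50%. The mean share is highest in regions with 80 to 604 AGTuC reads in both assays, and the pair of high scGRO–seq points at 6 to 19 reads are Exp211 (73.9%) and Exp156 (66.9%). Of the 865 antisense reads behind the Exp211 point, 479 are of Fam83f.

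In scGRO–seq the ratio of antisense to sense reads also differed between the CpG classes. In the class richest in CpG the log2 ratio was -2.61 ± 0.67 and in the poorest -0.76 ± 0.34, so that it was lower by 1.85 in the CpG-rich class (two-sided exact sign-flip test, p = 0.00195, adjusted p = 0.00977, lower in 10 of 10 batches). The difference was -1.135 with 500 bp windows and -1.20 without the genes that hold small RNA genes. The same difference was -0.55 and -0.36 in the AGTuC libraries and -1.69, -1.71, -1.19 and -2.62 in inAGTuC. The share of upstream reads on the antisense strand went the other way in scGRO–seq, with 54.7% ± 5.53 in the CpG-rich class and 45.3% ± 3.75 in the poorest (no test was made of this pair). The poorest class had 2447 scGRO–seq antisense reads in all. Of the 2804 genes in each class, 32 in the poorest and 2345 in the richest had 20 or more AGTuC sense reads. The classes thus differ in how many genes are transcribed, and the test cannot tell CpG content apart from this.

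A few regions with many scGRO–seq antisense reads owed them to 1 batch or position. They were singled out after their values had been seen. Fam83f had 549 antisense reads, 479 of them in Exp211, which were 19.6% of that batch's antisense reads, and 64 in Exp208, while AGTuC had 10. Dgcr6 had 388, 382 of them in Exp260b, with 75% at 1 position, and 1 read in AGTuC. Paxip1 had 92, with 90.2% at 1 position, but 178 in AGTuC. Twist2 had 174, with 98 in Exp236, beside 35 in inAGTuC and 33 in AGTuC. The most even of the 10 regions with most scGRO–seq antisense reads was Katnal2, with 64 reads at 59 positions in 8 batches, 26 in inAGTuC and 79 in AGTuC.

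Region by region, antisense windows, sense windows and bodies of all genes were fitted together with limma voom, scaled to reads in gene bodies, with 23071 features past a minimum of 50 reads over all libraries. Of the 11216 antisense windows 1444 passed this minimum, mostly through AGTuC, so they had to be higher there and the counts that follow are no support for a difference. They were higher in AGTuC than in scGRO–seq in 1426 windows (59.9% of all features and 95.9% of the sense windows of these regions were called so). They were lower in 2 (11.6% of all features, 0.233% of these sense windows). Against inAGTuC they were higher in 1419 (49.7% of all features, 88.6% of these sense windows) and lower in 1 (10.4% of all features, 0.103% of these sense windows). The lower windows were those of Pxt1 and Lamc3 against scGRO–seq and of Lamc3 against inAGTuC. Without the AGTuC library Exp125c_c02, which leaves 1 AGTuC library assumed to vary like the others, the higher calls fell to 252 against scGRO–seq and 250 against inAGTuC, and no window was lower. Without Exp125c_c01, or inAGTuC Exp208_c12 or Exp261_c16, the lower call against inAGTuC was lost. The lower calls against scGRO–seq were 4 without Exp246 or Exp263 and 1 without Exp260b. Between inAGTuC and scGRO–seq limma called 0 windows in either direction (0 and 0 of all features), with 9 higher and 25 lower at an unadjusted p under 0.05.

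The ratio of antisense to sense reads itself was tested at 151 genes with at least 50 antisense plus sense reads in both AGTuC and scGRO–seq. It was higher in AGTuC than in scGRO–seq at 7 genes, 4.64% of those tested, and lower at 11, 7.28% (limma, Benjamini-Hochberg adjusted p under 0.05). At an unadjusted p under 0.05 they were 20 and 24. The pseudocount of 1 pulls the log2 ratios of shallow libraries towards 0, and these counts changed with it, as they did with the minimum, so nothing is read from the balance of higher and lower calls. Leaving out Exp125c_c01 left 1 higher and 2 lower, leaving out Exp125c_c02 1 and 3, leaving out scGRO–seq Exp236 2 and 3, and leaving out scGRO–seq Exp208 lowered the lower calls to 7.

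Of the genes with a higher ratio in AGTuC, Ext1 had a mean log2 ratio of 2.46 in AGTuC against -1.93 in scGRO–seq, a difference of 4.39 (SE 0.90, adjusted p = 1.63e-04). Slc20a1, a phosphate transporter, differed by 3.05 (SE 0.86, adjusted p = 0.0101), and Jarid2, a component of Polycomb complex PRC2, by 2.94 (SE 0.87, adjusted p = 0.0143). Phf21a differed by 3.15 (SE 1.02, adjusted p = 0.0286) and no longer passed when each position was counted 1 time per library. Rabggtb had the largest difference, 6.42 (SE 2.19, adjusted p = 0.0385). It is a host of small nucleolar RNAs, and its 459 sense reads in AGTuC stood against 22195 in scGRO–seq, while its antisense reads were 48 and 3. Without either AGTuC library Slc20a1, Jarid2, Phf21a and Rabggtb did not pass, and neither did Phf21a without scGRO–seq Exp208 or Exp260, nor Rabggtb without inAGTuC Exp208_c12 or Exp208_c14 or scGRO–seq Exp156. Without Exp236 Ext1, Slc20a1 and Phf21a fell below the minimum of reads and were not tested, as was Phf21a without Exp260b, Exp263 or Exp264a.

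Among the 11 genes with a lower ratio in AGTuC were the replication-dependent histone genes H1f4, H4c4, H1f2 and H4c14. H1f4 differed by -4.98 (SE 0.97, adjusted p = 8.19e-05), with 3 antisense and 729 sense reads in AGTuC and 2 and 77 in scGRO–seq. H4c4 differed by -4.92 (SE 0.91, adjusted p = 4.39e-05), with 5 and 673 reads in AGTuC and 7 and 46 in scGRO–seq. Of the 7, 6 were in Exp260b, and 85.7% lay at 1 position. With so few antisense reads in both assays, these 2 differences rest on the sense reads and the pseudocount. H1f2 differed by -3.69 (SE 0.88, adjusted p = 0.00193), with 28 antisense reads in AGTuC, 24 of them in Exp125c_c02, and 3 in scGRO–seq. It had 1069 sense reads in AGTuC and 50 in scGRO–seq, so its scGRO–seq ratio also rests on the sense reads and the pseudocount. Stxbp2 differed by -4.05 (SE 1.11, adjusted p = 0.00855), with 135 antisense reads in scGRO–seq, 129 of them in Exp260b and 97% at 1 position. Without Exp236 Stxbp2 no longer passed, and without Exp125c_c01 H1f2 did not. Without Exp260b, or without either AGTuC library, Stxbp2 fell below the minimum of reads, as H1f2 and H4c4 did without Exp208, Exp236, Exp260b or Exp264a, so these were not tested.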

How the data were processed

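The authors deposited, for each library, a list of sequenced reads with a score (mapping quality), used here only as an alternative filter. Per the labels and the study's methods, they removed adaptors with Cutadapt, mapped to mm10 with Bowtie2 and removed duplicates with UMI-tools; no counts were normalized before deposit. Reads were counted here by the position of the RNA 3′ end and its strand, taken as opposite to the strand listed, which was checked against genes. Cells of scGRO–seq were kept at 1000 or more UMIs and 750 or more genes, and libraries at 24 or more kept cells. Reads with an identical molecule in another library were left out.

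Summary values were compared with exact permutation or sign-flip tests over libraries or batches, and p-values were adjusted over 20 tests by Benjamini-Hochberg. Counts per feature were fitted with limma 3.58.1 (voom, in R 4.3.3), and log2 ratios, with a pseudocount of 1, with limma's trend. A count-based test was not run. The fits were tested on simulated data. Other steps used numpy 2.4.6, pandas 2.3.3 and scipy 1.17.1, and figures matplotlib 3.10.9. Depth ran from 217601 to 4751831 reads per library or batch, and low counts limit the precision of single regions.

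Regions were named by a rule: the 10 with most AGTuC antisense reads at 20 or more positions, the 5 highest and 5 lowest AGTuC ratios with 50 or more reads in each library, the 5 largest changes of the ratio each way, and all members of the pluripotency, immediate early and study-named lists. Of these, 1 gene is not reported here. A part of the rule for regions with scGRO–seq reads in all 10 batches found none. The regions, lists and rules were chosen with earlier results of these data known. Alternatives covered reads, barcodes, batches, windows, repeats, annotation, mapping quality, scaling, minimums, the pseudocount and leaving out each replicate. The position from the other read end, the TSS of the longest model and leaving out genes with small RNAs were chosen after the data had been seen. Libraries of scGRO–seq batches that the figure of the study does not name entered the alternative with all batches, the values within batch Exp261 and the value given in the closing section.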

Additional observations from a re-analysis of the deposited data

Results flagged for a closer look

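The scGRO–seq libraries outside the 10 named batches, 22 libraries of 11 batches with 3071678 reads on chr1 to chr19 over all barcodes, entered only the alternative with all batches and the values within batch Exp261, as far as they had kept cells, and are listed because they hold upstream antisense reads above the limit that a count of 0 allows (3 reads). They had 9092 antisense reads and 8886 sense reads in the upstream 1 kb, an antisense share of 50.6%, and a density of 1.19-fold over the flank. The share lay within the range of the 10 named batches. Dixon's gap test at the 95% level, applied to 24 groups of values, marked no library or batch, and Exp234_c11 did not pass it for its reads on the gene's strand.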

How the results depend on the processing

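Most results kept their direction and their side of the threshold. The difference between AGTuC and scGRO–seq in the ratio of antisense to sense reads passed the test (unadjusted) with all deposited reads (1.15), scGRO–seq libraries as replicates (0.98), the other read end (1.06) and the median over regions (3.66, which went with depth, at -2.46 in the deepest scGRO–seq batch and -6.89 in the shallowest), and ran from 0.71 (without Exp156) to 0.95 (without Exp211) when 1 library or batch was left out. The same difference between inAGTuC and scGRO–seq turned sign with all batches (-0.20), 500 bp windows (-0.1335), repeats left out (-0.0129) and small RNA genes left out (-0.0777) and within Exp261 (-1.55), and ran from -0.165 (without Exp234_c11) to 0.27. The inAGTuC and scGRO–seq difference in strand share was -0.205 points by the other read end, -0.92 with batch means as replicates, -2.29 within Exp261 and -1.10 to 2.13 without 1 library or batch, and that in antisense percent was -0.0988 within Exp261 and passed the test with libraries as replicates (0.0708) and without Exp261_c16 (0.0936, lowest 0.0264 without Exp234_c11). The mean excess of the scGRO–seq strand share over 50% passed with all barcodes (2.34), each position counted 1 time (2.22), a mapping quality of 10 or more (2.67), curated neighbours (3.40), repeats left out (2.72) and the longest model (4.40), and ran from 1.89 to 3.10 without 1 batch. The AGTuC and scGRO–seq difference in median distance was lost with 500 bp windows (-30.9 bp). With batch means as replicates in every assay (chosen after the data had been seen) the AGTuC and scGRO–seq differences were 2.50 points in antisense percent, 25.6 points in strand share, 3.49 in log2 enrichment and -165 bp in distance, and no longer passed. The difference in antisense percent was 5.43 points from scGRO–seq and 5.245 from inAGTuC per read in gene bodies, and 2.04 and 1.99 with each position counted 1 time. The CpG difference in the scGRO–seq ratio was -1.135 with 500 bp windows, the AGTuC and scGRO–seq ratio difference 0.32 with them, and the scGRO–seq excess over 50% 0.315 points by the other read end. Without either AGTuC library no p under 0.0909 is possible, and the differences from scGRO–seq without 1 library or batch ran from 2.375 to 2.62 points in antisense percent, 25.1 to 26.35 points in strand share, 3.43 to 3.57 in log2 enrichment and -173 to -157 bp in distance.

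Counts of windows higher in AGTuC than in scGRO–seq and inAGTuC were 71 and 71 with a minimum of 200 reads and 2711 and 2508 with none, and ran from 252 to 1427 and from 250 to 1419 without 1 library or batch. Lower windows were 0 and 0 with 200 reads or with each position counted 1 time, 3011 and 288 with no minimum, 5 against scGRO–seq when scaled by the median ratio, 0 against inAGTuC with all reads, and 0 to 4 and 0 to 1 without 1 library or batch. Ratio calls, higher and lower, were 55 and 61 with all reads, 1 and 0 with 200 reads and 67 and 281 with 20 reads; lower calls were 50 with a pseudocount of 4 and 4 with each position counted 1 time. They ran from 1 to 10 and from 2 to 12 without 1 library or batch. Where no cause is given, the cause was not tested. With batch as a block in Exp208 and Exp261, which hold both assays (exact permutation within batches, smallest possible p = 0.167), inAGTuC differed from scGRO–seq by -0.0104 points in antisense percent, -0.56 in log2 ratio, -0.0799 points in strand share, 0.68 in log2 enrichment and -44.1 bp in distance, and none passed. Batch Exp234 also has libraries of both assays but was not part of this comparison.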
